A study of Homo sapiens with 4 samples.

Results

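MBNL1, MBNL2, QKI and CELF1 encode RNA-binding proteins that regulate alternative splicing, and their own transcripts are alternatively spliced. All splicing events of these 4 genes were taken from the 5 deposited event tables, by gene symbol. They came to 110 events of 121269 in all, in 4 of 12219 genes. RNA-seq had been performed on U87MG, a human cell line that the labels describe as likely glioblastoma, transfected with an oligonucleotide by lipofectamine at 2.5 µM. The RBFOXi group (2 libraries) received a decoy, a modified single-stranded RNA with repeats of the motif bound by the splicing factors RBFOX1 and RBFOX2, and the oligonucleotide of RBFOXi replicate 1 carried the dye Cy5. The SCRM group (2 libraries) received a control oligonucleotide of scrambled sequence, with no dye named. All 4 libraries came from 1 cell line. The methods describe the replicates as biologically independent, and the labels do not say in what they differed.

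The MBNL proteins bind YGCY elements (Y is C or U) and promote inclusion or skipping of an exon according to where they bind, and their sequestration by repeat RNA is known from myotonic dystrophy. CELF1 binds U- and G-rich elements and opposes MBNL at many exons. QKI, a KH-domain protein best known in glia, binds ACUAA elements, and its isoforms differ in their C-terminal tails. RBFOX proteins bind UGCAUG in introns, typically promoting inclusion when bound downstream of an exon and skipping when bound upstream.

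The reference sequence (hg19, the build of the deposited tables) of the exons on which most of the results below turn is shown here. MBNL1 and MBNL2 are paralogs, and both have cassette exons of 54, 36 and 95 nt. The exon is in capitals with 20 nt of intron on either side in lower case, 5′ to 3′ on the plus strand, as DNA.
MBNL1 54 nt, chr3:152164473-152164566: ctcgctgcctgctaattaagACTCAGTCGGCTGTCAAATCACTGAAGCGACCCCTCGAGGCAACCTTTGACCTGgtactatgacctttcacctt
MBNL2 54 nt, chr13:98009030-98009123: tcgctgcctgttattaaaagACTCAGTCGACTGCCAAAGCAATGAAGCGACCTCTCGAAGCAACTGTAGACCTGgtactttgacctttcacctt
MBNL1 36 nt, chr3:152173311-152173386: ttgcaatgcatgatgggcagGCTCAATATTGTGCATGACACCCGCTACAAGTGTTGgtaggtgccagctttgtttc
MBNL2 36 nt, chr13:98017370-98017445: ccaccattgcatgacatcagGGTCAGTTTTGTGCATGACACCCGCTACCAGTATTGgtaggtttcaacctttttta
MBNL1 95 nt, chr3:152174036-152174170: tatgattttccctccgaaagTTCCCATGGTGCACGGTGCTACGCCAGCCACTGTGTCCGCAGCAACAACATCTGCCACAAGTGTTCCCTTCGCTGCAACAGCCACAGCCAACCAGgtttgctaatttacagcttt
MBNL2 95 nt, chr13:98018693-98018827: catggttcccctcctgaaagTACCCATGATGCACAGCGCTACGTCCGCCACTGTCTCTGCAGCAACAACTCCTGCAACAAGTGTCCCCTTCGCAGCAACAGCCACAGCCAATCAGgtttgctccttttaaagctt

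Compared without gaps, the paralogous exons were identical at 45 of 54 bases (83.3%), at 31 of 36 (86.1%) and at 81 of 95 (85.3%). In a global alignment the last 100 nt of intron before the 54 nt exon were identical at 79.6% of the columns, and the other 5 intron flanks of 100 nt at 56.2% to 61.7%. All these exons are annotated as coding. The lengths of 54 and 36 nt keep the reading frame and the length of 95 nt does not.

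RBFOX binding letters lay close to these exons. UGCAUG was searched on the strand of the gene. Both 36 nt exons have it in the intron just before the acceptor site, with its last base 9 nt from the exon in MBNL1 and 8 nt in MBNL2 (visible above as tgcatg), and both hold a further copy within the exon. The 54 nt and 95 nt exons have it further upstream, at 179 and 141 nt in MBNL1 and at 173 and 123 nt in MBNL2, and the MBNL2 54 nt exon has another copy 27 nt downstream. These copies are printed here with the motif in capitals, because the side of the exon matters for RBFOX proteins.
MBNL1 54 nt, upstream, chr3:152164297-152164326: gtgcctttattgTGCATGcttagtcttgtt
MBNL2 54 nt, upstream, chr13:98008860-98008889: tttttgttgttgTGCATGcctagtgttttg
MBNL2 54 nt, downstream, chr13:98009118-98009147: cacctttcgcttTGCATGtagcttttcaga
MBNL1 95 nt, upstream, chr3:152173898-152173927: ttgcgctgtgatTGCATGtcactcgctggt
MBNL2 95 nt, upstream, chr13:98018573-98018602: ttgcattgtgatTGCATGccatctgctggt

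Over the 21 distinct exons of the 4 genes that were tested as skipped exons, 9 (42.9%) had UGCAUG in the 300 nt upstream and 2 (9.52%) in the 300 nt downstream. Among all 30634 distinct tested exons the shares were 8.16% upstream and 8.36% downstream. Within the exon it was found in 3 of the 21 (14.3%) and in 3.37% of all. The whole stretch up to the flanking exon of each event was also searched. It can span more than 1 intron and hold other exons. Over it 20 of the 21 exons had UGCAUG on each side, against 51.2% upstream and 49.9% downstream of all tested exons. In the 4 genes these stretches reached 178527 nt upstream and 114573 nt downstream. The MBNL letters searched were UGCU and its 3 variants with C as the first letter, the last letter or both. They are short and were present within 300 nt in 94.0% of all tested exons upstream and 93.7% downstream (median of 3 copies on each side), and the 54 nt exons had 12 copies upstream in MBNL1 and 11 in MBNL2. The QKI letters ACUAA lay within 300 nt upstream of 18.9% and downstream of 19.3% of all tested exons. The CELF1 letters UGUGU lay there in 39.8% and 37.4%, and the 152 and 72 nt exons of CELF1 itself had 3 and 4 copies upstream. All motifs were searched on the strand of the gene and not on the other. Matches may overlap one another and the RBFOX motif. They are descriptions of the sequence and not sites.

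**Figure D1:**
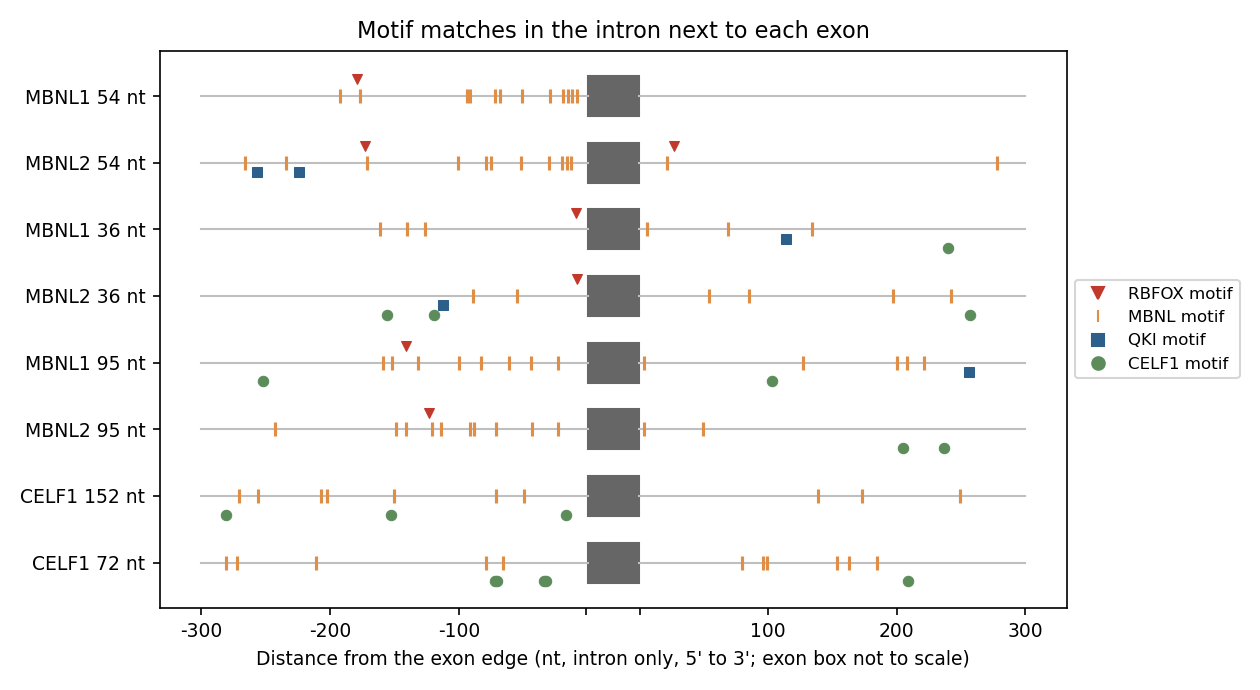
Matches to the RBFOX, MBNL, QKI and CELF1 motifs in the 300 nt of intron on each side of 8 cassette exons, at the distance in nt from the exon edge (upstream negative, exon box not to scale). The RBFOX motif lies upstream of all 6 MBNL exons and beside neither CELF1 exon.

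SCRM replicate 1 stood apart from the other libraries before any splicing was compared. Counts over all skipped exon events were similar, from 114415530 to 136097319 per library, with a read counted in every event it fits. Per 1000000 of these counts, however, MBNL1 had 14.0 in SCRM replicate 1 against 232, 268 and 422 in RBFOXi replicates 1 and 2 and SCRM replicate 2. MBNL2 had 3.78 in SCRM replicate 1, 4.55% of the 82.9 in SCRM replicate 2. The corresponding shares were 3.32% for MBNL1, 10.6% for QKI, 22.6% for CELF1 and 19.9% for RBFOX2, the factor the decoy targets. Over 10369 genes with at least 20 counts in every library, the log2 ratio of SCRM replicate 1 to SCRM replicate 2 had a median of -0.47 and ran from -3.03 at the 5th to 1.11 at the 95th percentile, and 0.174% of genes had a lower ratio than MBNL1. The deficit was smaller at the 3′ ends, where the terminal region of QKI had 45.9% of the raw count in SCRM replicate 2 against 9.01% over its skipped exon events. For CELF1 the terminal regions had 42.9% and 36.7%, against 19.2%. The cause of this difference between the libraries was not tested. The part of this library in the results was not tested beyond the values without it given below. Of the marker genes, VIM, CD44, FN1 and NES had skipped exon counts in all libraries, and the glial genes GFAP, OLIG2 and SOX2 and the epithelial, blood and endothelial genes EPCAM, CDH1, PTPRC and PECAM1 had 0 events in the skipped exon table, so their levels could not be checked.

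**Figure D2:**
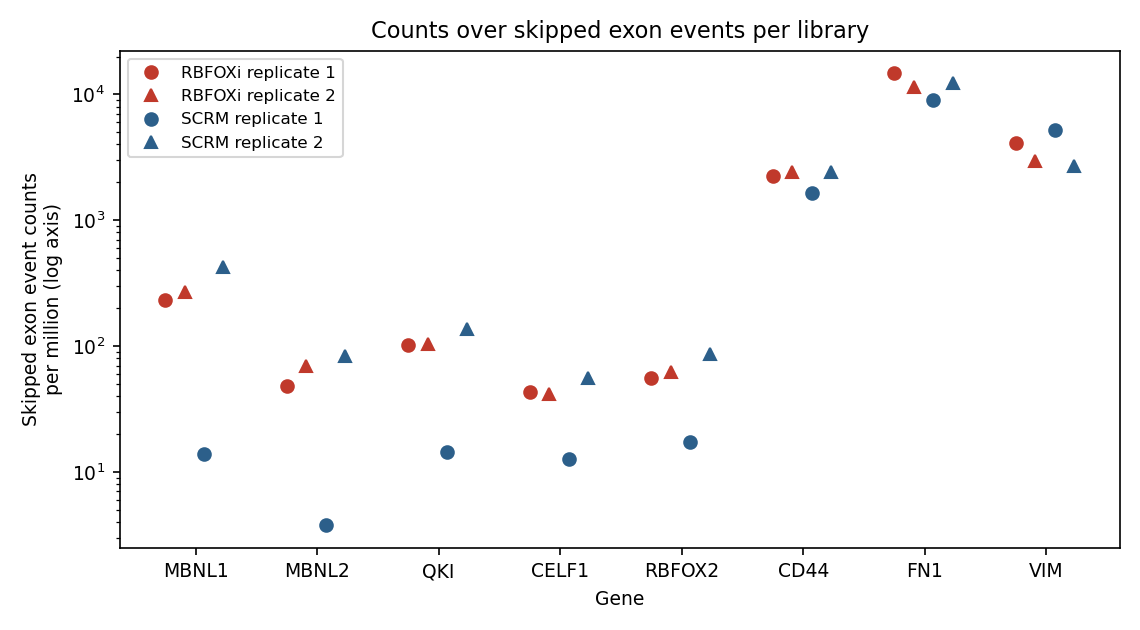
Counts over skipped exon events per 1000000 (log axis) for the 4 genes, RBFOX2 and 3 abundant genes, 1 point per library. In MBNL1, MBNL2, QKI, CELF1 and RBFOX2 the point of SCRM replicate 1 lies below the other 3, as it does in CD44 and FN1 by less, and in VIM it lies above them.

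Inclusion is given as PSI, the proportion spliced in, which is 0 where a region is always left out and 1 where it is always kept. It was calculated for each library after the inclusion and skipping counts had been divided by the effective lengths of the forms. Delta PSI is the mean of RBFOXi minus the mean of SCRM. Skipped exon events numbered 67 (29 in MBNL1, 14 in MBNL2, 13 in QKI and 11 in CELF1). Of these, 31 at 21 exons had enough counts to be tested (5 or more in each of the libraries, 20 or more on average, and 4 or more of each form in total). The other 36 were left out, 32 for too few skipping counts and 4 for too few counts in a library. Only 13 tested events, at 8 exons, were alternative in the sense of a mean PSI from 0.05 to 0.95. There were 28 events of mutually exclusive exons (27 tested), 11 alternative 3′ splice sites (10 tested), 4 retained introns (4 tested) and 0 alternative 5′ splice sites.

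The call required an adjusted p under 0.05 (limma on the log2 odds of inclusion, Benjamini-Hochberg within the event type) and a delta PSI of 0.1 or more in size. By this rule, 0 of the 31 tested skipped exon events of the 4 genes were called, where 0.0682% of all 39615 tested events were (27 events), and the smallest adjusted p in limma was 0.425. Of the other types, 0 events of the 4 genes were called, as were 0 over all genes. At an unadjusted p under 0.05 in the same fit there were 7 of 31 skipped exon events (22.6%), against 3.61% of all tested. The 7 lay at 5 exons, all in MBNL1, 6 with higher inclusion with RBFOXi (background 1.87%) and 1 with lower (background 1.74%). The 6 are not independent results, since those at the neighbouring 36 and 95 nt exons share counts. The others of the 6, at the 204 and 171 nt exons, rested on few skipping counts and had overlapping groups, as given below. By the quasi-binomial F test, 0 of the 31 events were called and 3 (9.68%) had an unadjusted p under 0.05, where 4.27% of all tested events had. Without SCRM replicate 1 the count in limma was also 3 (9.68%), against 3.23% of all. The PSI values of the groups did not overlap in 13 of the 31 events (41.9%), and in 30.8% of all tested events. The median delta PSI was 0.00122 over the 31 events and -5.65e-05 over all tested events, and the median absolute delta PSI was 0.00722 and 0.00803.

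**Figure D3:**
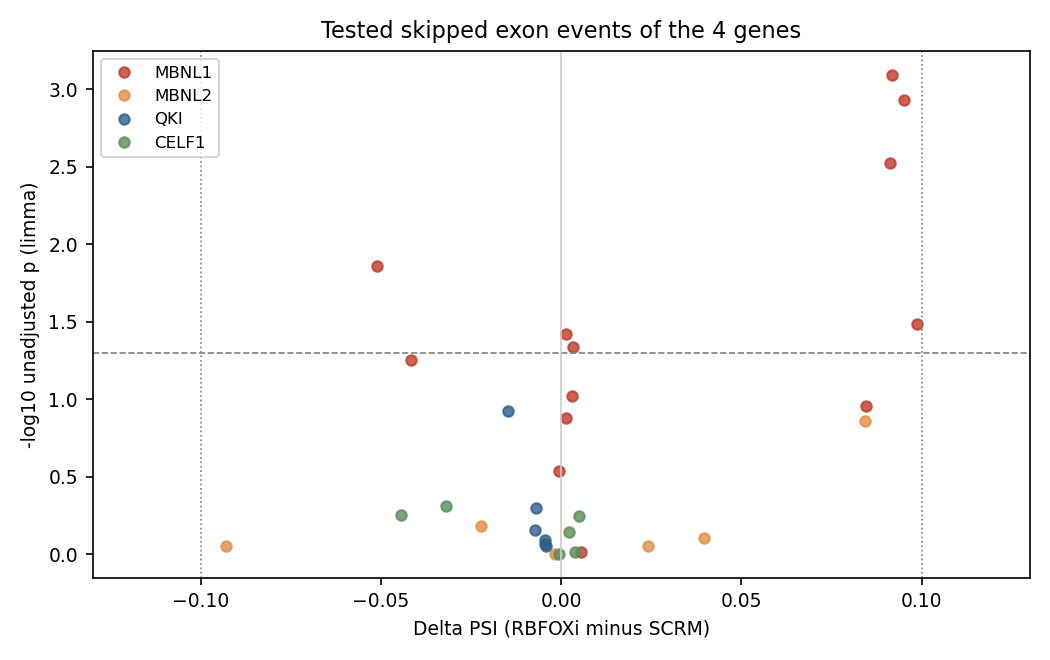
Delta PSI (RBFOXi minus SCRM) against -log10 of the unadjusted p (limma) for the 31 tested skipped exon events of the 4 genes, 1 point per event. The 7 points above the dashed line (p of 0.05) are MBNL1 events, and 0 points lie beyond the dotted lines at a delta PSI of 0.1 in either direction.

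In MBNL1, the 36 nt exon (chromosome 3, 152173331 to 152173366, coding) had the smallest p of all member events. Its PSI was 0.960 and 0.957 in the RBFOXi libraries and 0.849 and 0.884 in the SCRM libraries, on 448, 530, 24 and 696 counts. Both RBFOXi values were above both SCRM values, and the means of 0.959 ± 0.0021 and 0.867 ± 0.0248 (SD, n = 2 each) differed by 0.0918. The log2 odds of inclusion were higher by 1.85 (SE 0.43) with RBFOXi in limma, with an unadjusted p of 0.000806 and an adjusted p of 0.425, so the exon was not called. The value of SCRM replicate 1 rested on 19 inclusion and 5 skipping counts, and its exact 95% binomial interval ran from 0.671 to 0.951, which covers counting error only. Without this library delta PSI was 0.0742 (limma, adjusted p = 0.999), so that the SCRM value then came from 1 library. For an exon this short the effective length of the inclusion form (58 nt) is below that of the skipping form (86 nt), and in the plain share of counts the difference was 0.125.

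The MBNL1 95 nt exon (chromosome 3, 152174056 to 152174150, coding), which follows the 36 nt exon, was also mostly included. Measured after the 36 nt exon, its PSI was 0.964 and 0.981 with RBFOXi and 0.826 and 0.920 with SCRM. All values with RBFOXi were above those with SCRM, with a delta PSI of 0.0988 (limma, unadjusted p = 0.0326). Only 3, 2, 1 and 10 skipping counts stood behind these values, the plain share of counts differed by 0.0132, and delta PSI without SCRM replicate 1 was 0.0518.

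A second event at each of these exons, picked out after its values were seen, counts the transcripts that lack both exons together. The skipping counts of this form were 7 and 20 with RBFOXi and 2 and 73 with SCRM. For the 36 nt exon against this form, PSI was 0.983 and 0.955 with RBFOXi and 0.856 and 0.892 with SCRM (delta PSI 0.0951, limma, unadjusted p = 0.00117). For the 95 nt exon against it, PSI was 0.972 and 0.937 with RBFOXi and 0.882 and 0.844 with SCRM (delta PSI 0.0913, limma, unadjusted p = 0.00298). In both events the groups did not overlap. They share their skipping counts with each other and inclusion counts with the events above, so these 4 events are not independent.

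The MBNL1 54 nt exon (chromosome 3, 152164493 to 152164546, coding), which is known to contribute to nuclear localization of the protein and to be repressed by MBNL1 itself, was the most evenly alternative exon of the gene. Its PSI was 0.289 and 0.364 with RBFOXi and 0.215 and 0.269 with SCRM, on 501, 657, 39 and 852 counts. The groups did not overlap, but RBFOXi replicate 1 (0.289) and SCRM replicate 2 (0.269) were close. The means were 0.327 ± 0.0534 and 0.242 ± 0.0376 (SD, n = 2 each), with a delta PSI of 0.0846 (limma, unadjusted p = 0.11), and 0.0580 without SCRM replicate 1.

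The other MBNL1 exons were close to constant. The 963 nt exon (chromosome 3, 152017194 to 152018156), which holds the start codon in part of the annotated transcripts, had a PSI of 0.913 and 0.947 with RBFOXi and 1.00 and 0.963 with SCRM. This was the only MBNL1 event with lower inclusion at an unadjusted p under 0.05 (delta PSI -0.0511, limma, unadjusted p = 0.0137), and SCRM replicate 1 had 0 skipping counts among 313. Delta PSI was -0.0327 without that library, and the plain share of counts differed by -0.00462. The coding 204 nt exon (152150506 to 152150709) had a PSI of 0.922 and 0.933 with RBFOXi and 1.00 and 0.938 with SCRM, the first SCRM value on 85 counts (delta PSI -0.0418). Its delta PSI was -0.0110 without SCRM replicate 1.

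Further events of the 204 nt and the 171 nt exon (152132730 to 152132900), against another upstream or downstream exon, had an unadjusted p under 0.05 in limma at a delta PSI of 0.0032 and 0.00122. These rested on 0, 1, 0 and 5 skipping counts in both cases, and the groups overlapped in both. Delta PSI was -0.00133 and -0.000601 without SCRM replicate 2. The unadjusted p in limma was 0.154 and 0.121 with a pseudocount of 0.1, and 0.0276 and 0.0234 with a pseudocount of 1. A 64 nt exon (152175919 to 152175982) was nearly always skipped, with a PSI of 0 to 0.0119. An alternative 3′ splice site that adds 105 nt of coding sequence to the 154 nt exon had a PSI of 0.941 and 0.917 with RBFOXi and 1.00 and 0.926 with SCRM (delta PSI -0.0342, and 0.00263 without SCRM replicate 1).

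In MBNL2, the paralogous exons were included far less. The 95 nt exon (chromosome 13, 98018713 to 98018807, coding) had a PSI of 0.337 and 0.350 with RBFOXi and 0.262 and 0.257 with SCRM, on 238, 361, 41 and 382 counts. Both RBFOXi values were above both SCRM values, and the replicates lay close together, at 0.343 ± 0.00881 and 0.259 ± 0.00351 (SD, n = 2 each). However, the value of SCRM replicate 1 rested on 17 inclusion and 24 skipping counts. Its exact 95% binomial interval (counting error only) ran from 0.152 to 0.407 and covers both RBFOXi values. Delta PSI was 0.0842 (limma, log2 odds 0.57, SE 0.36, unadjusted p = 0.139) and 0.0867 without SCRM replicate 1. The direction was that of the 95 nt exon of MBNL1, and whether the size differed between the paralogs was not tested.

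The MBNL2 54 nt exon (98009050 to 98009103, coding) had a PSI of 0.0857 and 0.0956 with RBFOXi and 0.124 and 0.0604 with SCRM. The SCRM libraries lay on either side of the RBFOXi libraries, the upper one on 12 counts, and delta PSI was -0.00171 (0.0302 without it). The 36 nt exon (98017390 to 98017425), whose mean PSI was too low for the rule on named events and which was picked for its paralog, had a PSI of 0.0495 and 0.0667 with RBFOXi and 0 and 0.0371 with SCRM. SCRM replicate 1 had 0 inclusion counts among 10 there, with an upper bound of the exact interval of 0.398. Another event at this exon, against a further downstream exon, had more counts (123, 175, 24 and 229). Its PSI was 0.0591 and 0.00845 with RBFOXi and 0 and 0.0193 with SCRM, so the groups overlapped there. The lowest delta PSI among the skipped exon events of MBNL2 was -0.0931 (limma, unadjusted p = 0.885), at the 95 nt exon measured after the 36 nt exon. That event rested on 4, 1, 0 and 1 skipping counts, and its log2 odds changed in the other direction (0.19).

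**Figure D4:**
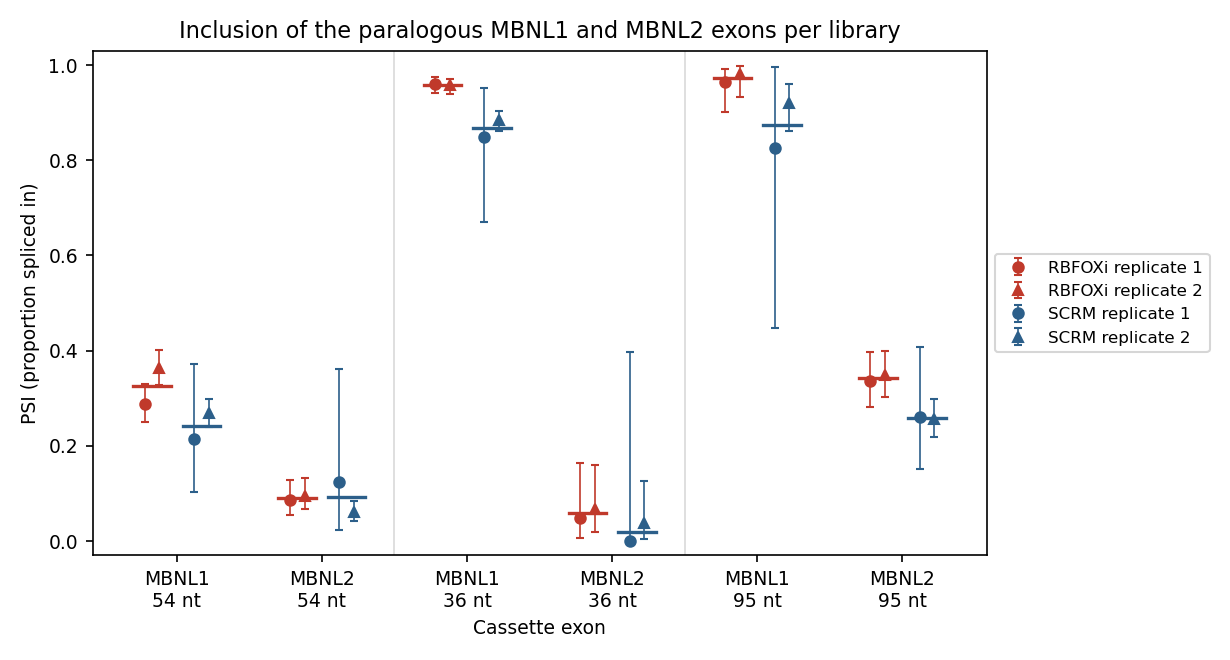
PSI of the paralogous 54, 36 and 95 nt exons of MBNL1 and MBNL2, 1 point per library with its exact 95% binomial interval (counting error only), and a bar at the mean of each group. The MBNL1 36 nt exon lies at 0.849 to 0.960 and its MBNL2 counterpart at 0 to 0.0667, and the intervals of SCRM replicate 1 are the widest.

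Mutually exclusive pairs of MBNL2 had higher values with RBFOXi in 5 of 5 events, where 67.3% of all tested events of this type had. Without SCRM replicate 1 it was 4 of 5, and the median delta PSI fell from 0.0969 to 0.00884. The 5 events lay at 4 distinct pairs and are not independent. The pair of 201 and 154 nt exons is counted against different upstream exons with nearly the same skipping counts. For the 201 nt exon (97995270 to 97995470) against a 154 nt exon, the share of the first exon was 0.560 and 0.557 with RBFOXi and 0.359 and 0.515 with SCRM. The low SCRM value, on 57 counts, belonged to SCRM replicate 1, and delta PSI was 0.122 with it (limma, unadjusted p = 0.0431) and 0.0436 without it. With SCRM replicate 2 left out in its place, delta PSI was 0.199 and the event was called (limma, adjusted p = 0.00755). As skipped exons, the 154 nt exon had 0, 0, 0 and 1 skipping counts against 311, 440, 43 and 594 inclusion counts, so few counts came from transcripts without it. The other 3 named events of MBNL2 had a delta PSI of 0.0713, 0.0969 (the same 201 and 154 nt pair) and 0.13. These became -0.0157, 0.0307 and 0.00286 without SCRM replicate 1. The 3 of MBNL1 had -0.0246, 0.0425 and 0.0389, which became -0.00893, -0.0330 and 0.00298, and the only pair of CELF1 had 0.0369, which became -0.00597. Over the 27 tested events of this type in the 4 genes, 3 (11.1%) had an unadjusted p under 0.05, where 1.51% of all tested events had. All 3 were higher with RBFOXi (background 0.871%). They lay at 2 distinct pairs, since 2 of the 3 were the same QKI pair with nearly the same counts. Of the 27, 13 (48.1%) had groups that did not overlap, where 24.4% of all had. The median delta PSI was 0.0212 over the 27 and 0.0100 over all tested, and 0.00286 and -0.00523 without SCRM replicate 1.

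QKI showed almost no exon skipping. Its 6 tested skipped exon events, at 4 exons, had a mean PSI from 0.975 to 0.997 and a delta PSI from -0.0147 to -0.00429. The sign was negative in 6 of 6, where 49.4% of all tested skipped exon events were higher with RBFOXi. Of the 6, 0 had an unadjusted p under 0.05. In 4 of 6 both RBFOXi libraries were below both SCRM libraries (background 16.5%), but not on independent counts. Among these, an event of the 143 nt exon and an event of the 117 nt exon share their skipping counts of 2, 2, 0 and 1. The 75 nt exon had 7, 12, 0 and 6, the skipping counts that return below in the terminal region. SCRM replicate 1 had 0 skipping counts in each of the events just named. The remaining one, another event of the 117 nt exon, had 18, 18, 2 and 12 skipping counts. The alternatives of QKI lay in its 3′ part, where the C-terminal tails are encoded.

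An alternative 3′ splice site adds 24 nt of coding sequence to a QKI exon (chromosome 6, 163984452 to 163984475). The alternative stretch is in capitals here.
QKI 24 nt, plus strand, chr6:163984432-163984495: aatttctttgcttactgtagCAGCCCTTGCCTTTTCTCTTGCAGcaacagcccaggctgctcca
Use of the upstream site had a PSI of 0.938 and 0.95 with RBFOXi and 0.885 and 0.923 with SCRM, on 426, 478, 72 and 637 counts. The groups did not overlap, with a delta PSI of 0.0401 (limma, unadjusted p = 0.0885) and 0.0208 without SCRM replicate 1. Mutually exclusive exons of 144 and 88 nt upstream of it had a PSI of 0.949 and 0.953 with RBFOXi and 0.863 and 0.928 with SCRM. Delta PSI was 0.0553 (limma, unadjusted p = 0.0403), and 0.0230 without SCRM replicate 1. The skipping counts of this pair (22, 21, 7 and 42) were nearly those of the 24 nt site (22, 20, 7 and 41). It therefore largely repeats that event. As a skipped exon the 88 nt exon had 0, 1, 0 and 0 skipping counts, so few counts came from transcripts without it. The other 3 named pairs of QKI, between its 143, 117 and 144 nt exons, had a delta PSI from -0.0365 to -0.0224, and from -0.0294 to -0.0112 without that library.

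In the terminal region of QKI, values were lower with RBFOXi without being called. The 6027 nt between 2 alternative 3′ splice sites (163985699 to 163991725), which include annotated 3′ untranslated sequence and the end of a coding tail, had a PSI of 0.868 and 0.819 with RBFOXi and 1.00 and 0.904 with SCRM. Both RBFOXi values were below both SCRM values, with a delta PSI of -0.109 (limma, unadjusted p = 0.0445) and -0.0606 without SCRM replicate 1. The skipping counts were 7, 12, 0 and 6, while 1837 to 4175 counts per library covered the overlapping retained region. That region, the 6974 nt from 163984752 to 163991725 counted as a retained intron, had the same skipping counts and a PSI of 0.855 and 0.8 with RBFOXi and 1.00 and 0.895 with SCRM (delta PSI -0.120, limma, unadjusted p = 0.0703). Another 3′ splice site 1279 nt further on (163986978) gave a delta PSI of -0.0954 with these skipping counts again (limma, unadjusted p = 0.0428). Without SCRM replicate 1 these were -0.0672 and -0.0547. The 3 values therefore repeat 1 junction, and in the plain share of counts the differences were -0.00188, -0.00184 and -0.00202. The retained intron of 947 nt (163984752 to 163985698) had a PSI of 0.323 and 0.154 with RBFOXi and 0.0558 and 0.3 with SCRM, so the groups overlapped. A retained intron of 2226 nt from the same start and a 1279 nt 3′ splice site region also overlapped between the groups (delta PSI -0.0313 and -0.0684), as did the only retained intron of MBNL2, of 37 nt, on 5 counts in SCRM replicate 1 (delta PSI -0.0403). Without SCRM replicate 1 these 4 values turned, to -0.0617 at the 947 nt intron and to 0.0307, 0.0440 and 0.00806 at the others.

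In CELF1, which is on the minus strand of chromosome 11, the alternative exons at the 5′ end did not differ beyond the spread of the replicates. The 152 nt exon (47521005 to 47521156), which holds the start codon of some annotated transcripts, had a PSI of 0.24 and 0.319 with RBFOXi and 0.295 and 0.327 with SCRM. The 72 nt exon (47522413 to 47522484) of the 5′ untranslated region had a PSI of 0.143 and 0.169 with RBFOXi and 0.119 and 0.193 with SCRM. The groups overlapped in both, with a delta PSI of -0.0321 and -0.00062 (limma, unadjusted p = 0.488 and 0.995), and -0.0482 and -0.0377 without SCRM replicate 1. The 2 exons share their skipping counts (302, 284, 44 and 370).

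Tandem 3′ splice sites of CELF1 add 3 or 12 nt of coding sequence, shown in capitals.
CELF1 3 nt, minus strand, chr11:47498489-47498531: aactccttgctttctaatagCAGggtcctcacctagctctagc
CELF1 12 nt, minus strand, chr11:47500473-47500524: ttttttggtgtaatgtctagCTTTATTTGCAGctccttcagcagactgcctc
The 3 nt were included at a PSI of 0.434 and 0.360 with RBFOXi and 0.525 and 0.446 with SCRM, on 258, 258, 80 and 314 counts. The 12 nt were included at 0.814 and 0.768 with RBFOXi and 0.888 and 0.856 with SCRM, on 283, 330, 53 and 369 counts. At both sites the RBFOXi libraries lay below the SCRM libraries. Delta PSI was -0.0881 for the 3 nt (limma, unadjusted p = 0.122) and -0.0486 without SCRM replicate 1. For the 12 nt it was -0.0813 (limma, unadjusted p = 0.0465) and -0.0654 without that library. Another 3 nt site (47506073 to 47506075), outside the rule on named events, went the other way with overlapping groups. Its PSI was 0.987 and 0.972 with RBFOXi and 0.897 and 0.989 with SCRM (delta PSI 0.0367). The value of SCRM replicate 1 there rested on 39 counts, and without that library this site too was lower with RBFOXi.

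In the 3′ untranslated region of CELF1, the 1998 nt stretch (47490444 to 47492441) had a PSI of 0.368 and 0.326 with RBFOXi and 0.431 and 0.354 with SCRM (delta PSI -0.0453), and the longer stretch of 3211 nt from the same site had a delta PSI of -0.0352. Without SCRM replicate 1 the differences were -0.00658 and -0.0168, and in the plain share of counts -0.0116 and -0.00638. Over the 10 tested alternative 3′ splice sites of the 4 genes, inclusion was lower with RBFOXi in 8, where 53.5% of all tested were higher. The median delta PSI was -0.0568 against 0.000938 over all tested. An unadjusted p under 0.05 in limma was found for 3 (30.0%), where 3.32% of all tested had one. All 3 were lower (background 1.26%). They are not independent, since those of QKI repeat 1 junction with the same skipping counts. Without SCRM replicate 1 inclusion was lower in 7 of 10, with a median of -0.0128 against 0.000577 over all tested. Groups did not overlap in 5 of 10 (50.0%) and in 30.9% of all tested. Some of these events overlap in the same region, as above.

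**Figure D5:**
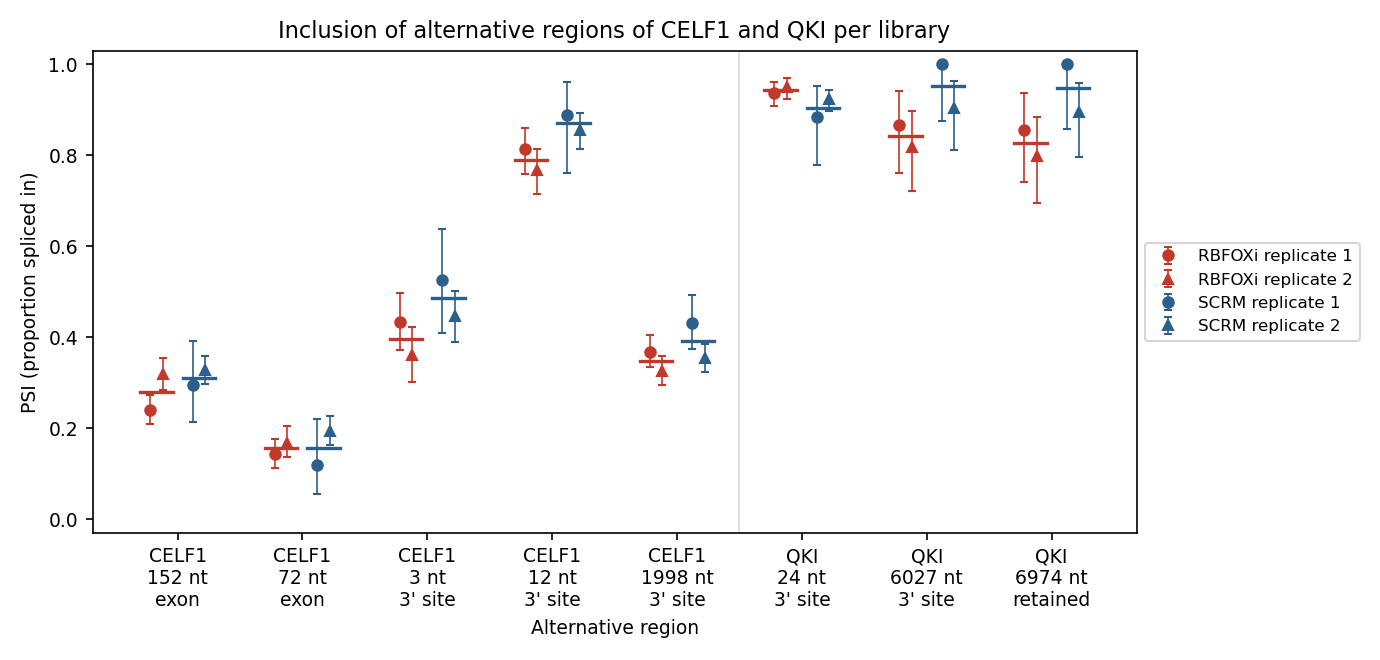
PSI of 5 alternative regions of CELF1 and 3 of QKI, 1 point per library with its exact 95% binomial interval (counting error only), and a bar at the mean of each group. The RBFOXi points lie below the SCRM points at the CELF1 3 and 12 nt sites and at the QKI 6027 and 6974 nt regions, where SCRM replicate 1 is at 1.00.

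Among 26 other splicing regulators, 12 had skipped exon events that could be tested, 56 in all. Of these 0 were called, where 0.0682% of all tested events were. An unadjusted p under 0.05 in limma was found for 4 (7.14%, against 3.61% of all tested), 1 higher (background 1.87%) and 3 lower (background 1.74%) with RBFOXi. PTBP1, which represses many neuronal exons, was lower at its 57 nt exon (PSI 0.456 and 0.504 with RBFOXi, 0.549 and 0.623 with SCRM) and at the overlapping 78 nt form (delta PSI -0.0913). NOVA1 had a 102 nt exon with a PSI of 0.120 and 0.229 with RBFOXi and 0.0621 and 0.0980 with SCRM. In HNRNPM, a 45 nt exon differed by -0.0123 and 1 pair of mutually exclusive exons by 0.0161 (1 of 49 tested pairs, 2.04%, at an unadjusted p under 0.05, against 1.51% of all). All these values separated the groups, and the adjusted p in limma was above 0.05 for each.

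Of 12 genes known as targets of MBNL, CELF1 or QKI, 5 had 37 tested skipped exon events. Of these 1 was called, where 0.0682% of all tested events were. An unadjusted p under 0.05 in limma was found for 5 (13.5%, against 3.61% of all tested), 1 higher (background 1.87%) and 4 lower (background 1.74%) with RBFOXi. The called event was the 96 nt exon of ADD3, a membrane skeleton protein, with a PSI of 0.207 and 0.318 with RBFOXi and 0.0435 and 0.0528 with SCRM (limma, adjusted p = 0.0289). Delta PSI was 0.269 without RBFOXi replicate 1 and 0.159 without RBFOXi replicate 2. It was 0.210 without SCRM replicate 1 and 0.219 without SCRM replicate 2. The call was kept without RBFOXi replicate 1 and lost without each of the other libraries. The 42 nt exon of NUMA1, a mitotic spindle protein, had a PSI of 0.534 and 0.481 with RBFOXi and 0.684 and 0.745 with SCRM (limma, adjusted p = 0.425). BIN1, which shapes membranes, had 3 exons with a delta PSI of -0.00876, -0.183 and -0.111, and each had both RBFOXi libraries below both SCRM libraries. The mutually exclusive pair of INSR, the insulin receptor, was higher with RBFOXi by 0.317 on a mean of 67.2 counts (limma, unadjusted p = 0.00416). Of 24 tested events of this type in the target genes, 0 were called and 4 (16.7%, against 1.51% of all tested) had an unadjusted p under 0.05, the other 3 in BIN1 and lower with RBFOXi. These genes are also spliced by other factors, and the paper itself used NUMA1 as a splicing target of RBFOX1 and RBFOX2. Which factor the differences follow was not tested. The lists were not chosen independently of these data.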

How the data were processed

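RNA-seq of 4 U87MG libraries was analysed, 2 with RBFOXi and 2 with SCRM, grouped by the labels. Per the methods and labels, reads were mapped uniquely (STAR 2.4.2a, hg19), and rMATS with the UCSC known genes gave the counts of each event. The deposited values used were unnormalized read counts per form, with the replicates of a group joined in 1 cell, and effective lengths. The deposited p-values, FDR, inclusion levels and their difference hold the authors' own comparison and were not used. Members and lists were chosen with earlier results of these data known.

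Counting filters, the limma 3.58.1 fit (R 4.3.3, pseudocount 0.5, prior variance following each event's information) and the calling rule stand with the results. The fit was tested on simulated data. Depth came to 114415530 to 136097319 skipped exon counts per library. Intervals are exact (Clopper-Pearson) and cover counting error only. With 2 against 2 libraries an exact permutation test cannot go below 0.333, so none was used. Named were 1 event per alternative region (mean PSI 0.05 to 0.95, up to 8 per gene and type, 3 for mutually exclusive exons), and events with an unadjusted p under 0.05 or an absolute delta PSI of at least 0.1. Sequences came from GRCh37 (AG before and GT or GC after 30621 of 30634 tested exons), gene models from GENCODE 44 lifted to it, read with pysam 0.24.0 and Biopython 1.88. Flanks were aligned globally. Alternatives covered the test, pseudocount, filters, PSI definition, delta PSI minimum, replicate block, 1 event per exon, and each library left out.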

Additional observations from a re-analysis of the deposited data

How the results depend on the processing

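The count of 0 called skipped exon events was the same under the other tests, pseudocounts, count filters, delta PSI minimums, the plain share of counts and 1 event per exon. Leaving out 1 library in turn gave 0 to 1, and the 1 event was the second event at the MBNL1 36 nt exon without RBFOXi replicate 2. For the other event types leaving out 1 library gave 0 to 7 calls, all without SCRM replicate 2, when SCRM replicate 1 alone stood for its group and was assumed to vary like the other libraries. The count at an unadjusted p under 0.05 (7) was 3 by the quasi-binomial F test, 4 with a pseudocount of 0.1, 14 of 62 tested with the looser filter and 3 with 1 event per exon. It ran from 3 to 10 with 1 library left out, and was 3 without RBFOXi replicate 1 and 3 without SCRM replicate 1. The cause of these differences was not tested.

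Same-numbered libraries deviated from their group means with a correlation of 0.0944, and the sample titles of a number share an ending whose meaning the sources do not give, so pairing was not established. With the replicate block 0 skipped exon events of the 4 genes were called and 9 (29.0%, against 5.82% of all tested) had an unadjusted p under 0.05, and the MBNL1 36 nt exon had an adjusted p of 0.0056 in limma. Without a delta PSI minimum the block called 3 and Fisher's exact test, run on counts added over replicates, called 6, both chosen after seeing the data, as was the quasi-binomial F test, which stood in for a planned count model that was not run because a cell of the tables holds 2 counts. The median delta PSI ran from -0.00167 to 0.00188 with 1 library left out. Of 36 named events, 23 kept their sign under all alternatives, 0 were called under those that kept the 4 libraries and a delta PSI minimum of 0.1, and 6 were called without SCRM replicate 2. With no minimum, the block called 1 of the 36 (the MBNL1 36 nt exon) and Fisher's exact test 5 (the MBNL1 36, 54 and 963 nt exons, the MBNL2 95 nt exon and the MBNL1 pair of 171 and 204 nt exons). Depth limits mostly the values of SCRM replicate 1.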
